A study of Mus musculus with 2 samples.

Results

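Messenger RNA of 33 genes of glycolysis and of the cellular response to low oxygen was followed in single cells of mouse tumours. The genes were taken from a named list and matched by symbol to the 34290 genes of the deposited matrices, in which each of the 33 was found 1 time. The list holds 17 glycolysis genes: the glucose transporter genes Slc2a1 and Slc2a3, the enzyme genes Hk1, Hk2, Gpi1, Pfkl, Pfkp, Aldoc, Tpi1, Gapdh, Pgk1, Pgam1, Eno1, Pkm and Ldha, and the regulator genes Pfkfb3 and Pdk1. The other 16 belong to the hypoxia response: Hif1a, Egln1, Egln3, Vegfa, Adm, Bnip3, Bnip3l, Ankrd37, Ndrg1, P4ha1, P4ha2, Ddit4, Mif, Kdm3a, Ero1a and Higd1a. The tumours had grown for 21 days from engrafted cells of the mouse colorectal cancer line MC38, in mice that received no treatment. The study compared tumours of vector control cells with tumours of cells lacking TMEM16F, a calcium-activated lipid scramblase encoded by Ano6, and asked how the immune cells of the tumour differed. The deletion was in the engrafted cells, so the immune cells described here came from hosts for which no deletion is labelled. The host strain, the number of mice per library and whether the knockout line was 1 clone are not stated in the sources used here. There was 1 library per group, so no difference below has a replicate check, and none was tested.

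Ano6 itself stood at 28.7 CPM (UMIs per 1000000) over all kept vector control cells and at 33.3 CPM in the TMEM16F KO cells. Host cells express Ano6 and the assay reads the 3′ end of a transcript, so this value checks no label. Depth was 46338994 UMIs over 5253 barcodes for the vector control and 49777630 UMIs over 5993 barcodes for the TMEM16F KO library, and 10 barcode sequences occurred in both. After filtering, 5028 and 5688 cells remained, with medians of 6019.5 and 5995 UMIs. Cells were placed in classes by the UMIs of marker genes, none of which is among the 33. Macrophage-like cells, with Pf4, C1qa and Apoe leading, made up 44.1% of kept vector control cells and 38.2% of kept TMEM16F KO cells. Markers of tumour epithelium summed to 30.2 and 18.7 CPM over all kept cells, and no class of cancer cells was named.

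Glycolysis converts glucose to pyruvate in the cytosol, and under low oxygen pyruvate is reduced to lactate. Prolyl hydroxylases, including the products of Egln1 and Egln3, use oxygen to mark HIF-1α, the product of Hif1a, for degradation. When oxygen is scarce the protein escapes, pairs with its partner ARNT and binds DNA at a short core sequence in its target genes, which include most glycolytic enzyme genes, Slc2a1, Vegfa, Bnip3 and Egln3 itself. HIF-1α is controlled mainly as a protein, so the mRNA of Hif1a does not report its activity. In tumours, macrophages gather in poorly perfused areas and are a known source of VEGF-A, and activated T cells raise glucose uptake and glycolysis through growth signals as well.

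The HIF core letters were searched in the promoters, because the genes share this known regulator and the search uses nothing of the measured values. Of the 33 genes, 30 had a window in the RefSeq promoter table (GRCm38.p6), 41 windows in all. Slc2a3, Bnip3l and Ndrg1 had none. In the 250 bases before the transcription start, ACGTG on either strand occurred in 18 of the 41 windows (43.9%), against 16.6% of the 32851 windows of all genes. GCGTG on either strand occurred in 25 of the 41 (61.0%), against 28.2%. The windows of the 33 genes were also richer in CG pairs, with 6.67 per 100 bases against 3.94, and both motifs contain a CG. Windows of the same gene can overlap, and a match is a description of letters, not of a bound site. The following 5 windows are shown because their genes carry the patterns described below: Ldha and Pgk1 for the enzymes, and Bnip3, Egln3 and Vegfa for the hypoxia response. Each is written 5′ to 3′ on the gene's strand, with the letters of either motif on either strand in capitals. They lie at chr7:46845554-46845803 (+ strand), chrX:106186850-106187099 (+ strand), chr7:138909507-138909756 (- strand), chr12:54203875-54204124 (- strand) and chr17:46032378-46032627 (- strand).
Ldha: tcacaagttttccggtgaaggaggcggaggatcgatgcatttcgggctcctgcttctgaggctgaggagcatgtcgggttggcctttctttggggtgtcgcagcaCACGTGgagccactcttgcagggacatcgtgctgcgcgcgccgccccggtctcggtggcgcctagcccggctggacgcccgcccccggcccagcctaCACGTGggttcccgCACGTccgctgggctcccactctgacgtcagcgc
Pgk1: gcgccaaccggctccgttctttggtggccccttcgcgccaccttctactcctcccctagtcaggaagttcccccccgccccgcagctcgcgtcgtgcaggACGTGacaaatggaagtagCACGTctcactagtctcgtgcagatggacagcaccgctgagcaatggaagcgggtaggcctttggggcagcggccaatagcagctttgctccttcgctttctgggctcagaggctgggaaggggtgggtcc
Bnip3: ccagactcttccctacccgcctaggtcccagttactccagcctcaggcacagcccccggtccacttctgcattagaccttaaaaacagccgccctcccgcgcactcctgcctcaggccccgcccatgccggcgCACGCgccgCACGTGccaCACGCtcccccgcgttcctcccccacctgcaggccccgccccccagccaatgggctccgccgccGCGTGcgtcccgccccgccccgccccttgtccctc
Egln3: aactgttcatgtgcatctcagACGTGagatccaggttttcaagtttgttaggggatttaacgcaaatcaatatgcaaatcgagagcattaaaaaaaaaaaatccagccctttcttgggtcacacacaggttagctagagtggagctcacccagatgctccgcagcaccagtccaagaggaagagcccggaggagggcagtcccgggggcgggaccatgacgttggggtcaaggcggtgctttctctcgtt
Vegfa: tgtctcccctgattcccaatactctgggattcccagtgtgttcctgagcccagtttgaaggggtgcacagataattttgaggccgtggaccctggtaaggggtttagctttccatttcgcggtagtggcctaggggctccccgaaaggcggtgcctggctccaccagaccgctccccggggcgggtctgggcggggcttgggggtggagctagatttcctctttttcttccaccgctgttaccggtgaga
The Ldha window held ACGTG 5 times when both strands are counted, since the palindrome CACGTG reads as a match on each strand. That of Pgk1 held it 2 times, and that of Egln3 held it 1 time. The Bnip3 window held ACGTG 2 times and GCGTG 3 times. The Vegfa window held neither, which says only that these letters are absent from these 250 bases. In the second Vegfa window of the table each motif occurred 1 time. No exon of the GENCODE annotation overlapped the printed windows except for 13 bases of the Bnip3 window.

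A level is the sum of a gene's UMIs in the cells of 1 class and library, scaled to 1000000 UMIs of those cells. This 3′ chemistry gives 1 UMI per captured transcript with no length scaling, so levels of different genes are set side by side only within a class. A pattern of cell type ran through most of the list in both libraries. In all 3 phagocyte classes (macrophage-like, monocyte-like and an intermediate group between them), 22 of the 33 genes stood above each of the 4 lymphocyte classes (CD8 T-like, Treg-like, NK-like and the remaining T cells). These were 13 of the 17 glycolysis genes and 9 of the 16 hypoxia genes. Slc2a3 and Ddit4 showed the reverse order in both libraries, and the other 9 genes showed neither order. The orders compare levels without their counting intervals. For Ldha, Pkm, Egln3, P4ha1 and Pdk1, among the 22, intervals of a phagocyte and a lymphocyte class overlapped in at least 1 library. In the vector control, the lowest phagocyte level of Ldha was 1247 CPM and the highest lymphocyte level 1222 CPM. The share of all genes with either order was not computed. These counts therefore describe the members and do not set them apart from other genes. The remaining T cells are those that met neither the CD8 nor the Treg rule. Their 10 leading genes held 3 Treg markers, Tnfrsf4, Ikzf2 and Tnfrsf18, against 2 of their own, Cd4 and Izumo1r, so they are a mixture, and their values are not those of 1 cell type.

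The glucose transporters divided the cell types most sharply. Slc2a1, the widely expressed transporter GLUT1, reached 106 and 127 CPM in macrophage-like cells of the vector control and TMEM16F KO libraries, and 54.9 and 65.4 CPM in CD8 T-like cells. Slc2a3, the high-affinity transporter GLUT3, reached 89.0 and 97.9 CPM in CD8 T-like cells against 2.01 and 3.14 CPM in macrophage-like cells. Slc2a1 thus supplied 98.1% of vector control and 97.6% of TMEM16F KO UMIs of the pair in macrophage-like cells. In CD8 T-like cells it supplied 38.1% of vector control and 40.0% of TMEM16F KO UMIs. NK-like cells lay between, at 70.7% of vector control and 56.1% of TMEM16F KO UMIs.

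Hexokinases, which phosphorylate glucose on entry, showed a similar division. Hk1, the constitutive form, made up 23.1% of vector control and 20.8% of TMEM16F KO UMIs of Hk1 and Hk2 together in macrophage-like cells. In CD8 T-like cells the share was 56.9% of vector control and 53.8% of TMEM16F KO UMIs, the rest being Hk2, the inducible form. For phosphofructokinase, the committed step of the pathway, the liver-type gene Pfkl supplied 32.3% of vector control and 31.3% of TMEM16F KO UMIs of Pfkl and Pfkp in macrophage-like cells. The CD8 T-like share was 19.9% of vector control and 18.7% of TMEM16F KO UMIs. Pfkp, the platelet-type gene, was most abundant in dendritic (DC-like) cells, at 187 and 263 CPM. Pfkfb3, whose product makes the activator of phosphofructokinase, was also most abundant in DC-like cells among the 8 classes with at least 50 cells in both libraries, at 45.8 and 69.4 CPM.

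The lower part of the pathway was abundant in every class. Gapdh, the dehydrogenase that yields NADH, had the highest level of the 33 genes in each of the 8 classes with at least 50 cells in both libraries, from 2209.7 CPM in TMEM16F KO NK-like cells to 5574 CPM in vector control intermediate phagocytes. Ldha, which turns pyruvate into lactate, reached 1247 and 1165 CPM in macrophage-like cells and 1222 and 1016 CPM in Treg-like cells. Pkm, the final kinase, reached 1124 and 1276 CPM in macrophage-like and 568 and 642 CPM in CD8 T-like cells. Gpi1, Tpi1, Pgk1, Pgam1 and Eno1, the isomerases, kinase, mutase and enolase between hexokinase and pyruvate kinase, lay between 538 and 1023 CPM in vector control macrophage-like cells. Tpi1, for example, stood at 790.0 and 795 CPM there and at 308 and 278 CPM in NK-like cells. Aldoc, 1 of the aldolases, stood far below these, at 60.0 and 59.9 CPM in macrophage-like cells. So did Pdk1, whose product is a kinase that inhibits pyruvate dehydrogenase, at 27.4 and 27.0 CPM. Gapdh, Ldha, Pgk1, Eno1 and other genes of this group have many processed pseudogenes, so the way reads were shared among copies is a source of uncertainty.

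In the hypoxia response, the cellular profile differed from gene to gene. Hif1a was highest in Treg-like cells, at 630.2 and 552 CPM, followed by the remaining T cells at 438 and 462 CPM and CD8 T-like cells at 274 and 353 CPM. Macrophage-like cells had 145 and 176 CPM, and the NK-like cells 78.7 and 122 CPM. Each step from Treg-like to remaining T to CD8 T-like to monocyte-like cells exceeded the counting intervals in both libraries, and the steps below did not. Ddit4, an inhibitor of mTORC1 induced by hypoxia, glucocorticoids and other stress, was also highest in Treg-like cells, at 215 and 198 CPM, and lowest in macrophage-like cells, at 19.995 and 38.3 CPM. Egln1, the main HIF prolyl hydroxylase, varied less, with 110.2 and 122 CPM in macrophage-like and 113 and 138 CPM in CD8 T-like cells. Egln3, an oxygen sensor that is itself a HIF target, reached 41.1 and 59.3 CPM in macrophage-like cells and 11.3 and 15.01 CPM in CD8 T-like cells.

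Vegfa, the angiogenic growth factor, was highest in monocyte-like cells, at 211 and 279.9 CPM, with intermediate phagocytes at 193 and 278 CPM and macrophage-like cells at 127 and 201 CPM. Bnip3, a mediator of mitophagy, had 245 and 270.3 CPM in macrophage-like cells and 73.5 and 90.1 CPM in CD8 T-like cells, while its relative Bnip3l had 129 and 152 CPM and 148 and 149 CPM. The Bnip3 share of the pair was 65.6% of vector control and 63.9% of TMEM16F KO UMIs in macrophage-like cells. The CD8 T-like share was 33.1% of vector control and 37.7% of TMEM16F KO UMIs. Of the collagen prolyl hydroxylase subunits, P4ha1 was found in every class, with 109 and 126 CPM in macrophage-like cells. P4ha2 was highest in the stroma-like cells, at 87.1 and 87.3 CPM, against 16.8 and 17.6 CPM in macrophage-like cells. The leading genes of the stroma-like class were Bgn, Sparc and collagen genes, with Tm4sf1, Crabp1 and Tubb3 also among its first 10, and whether it holds engrafted cancer cells was not tested. The stroma-like and neutrophil-like classes had fewer than 50 cells in at least 1 library, so only their levels are given. Adm, the vasodilator peptide adrenomedullin, was the scarcest member over all kept cells, with 2.93 and 3.29 CPM, and had 4.16 and 5.03 CPM in macrophage-like cells. Ankrd37 and Ndrg1, both HIF targets, had 55.0 and 68.0 CPM and 98.4 and 119.8 CPM in macrophage-like cells. Mif, a cytokine, was the most abundant hypoxia gene in that class, at 980.3 and 1020.1 CPM. Ero1a, an oxidase of the endoplasmic reticulum, Higd1a, a mitochondrial protein, and Kdm3a, a histone demethylase, had 149.7 and 157 CPM, 294 and 274 CPM and 15.7 and 17.9 CPM.

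**Figure D1:**
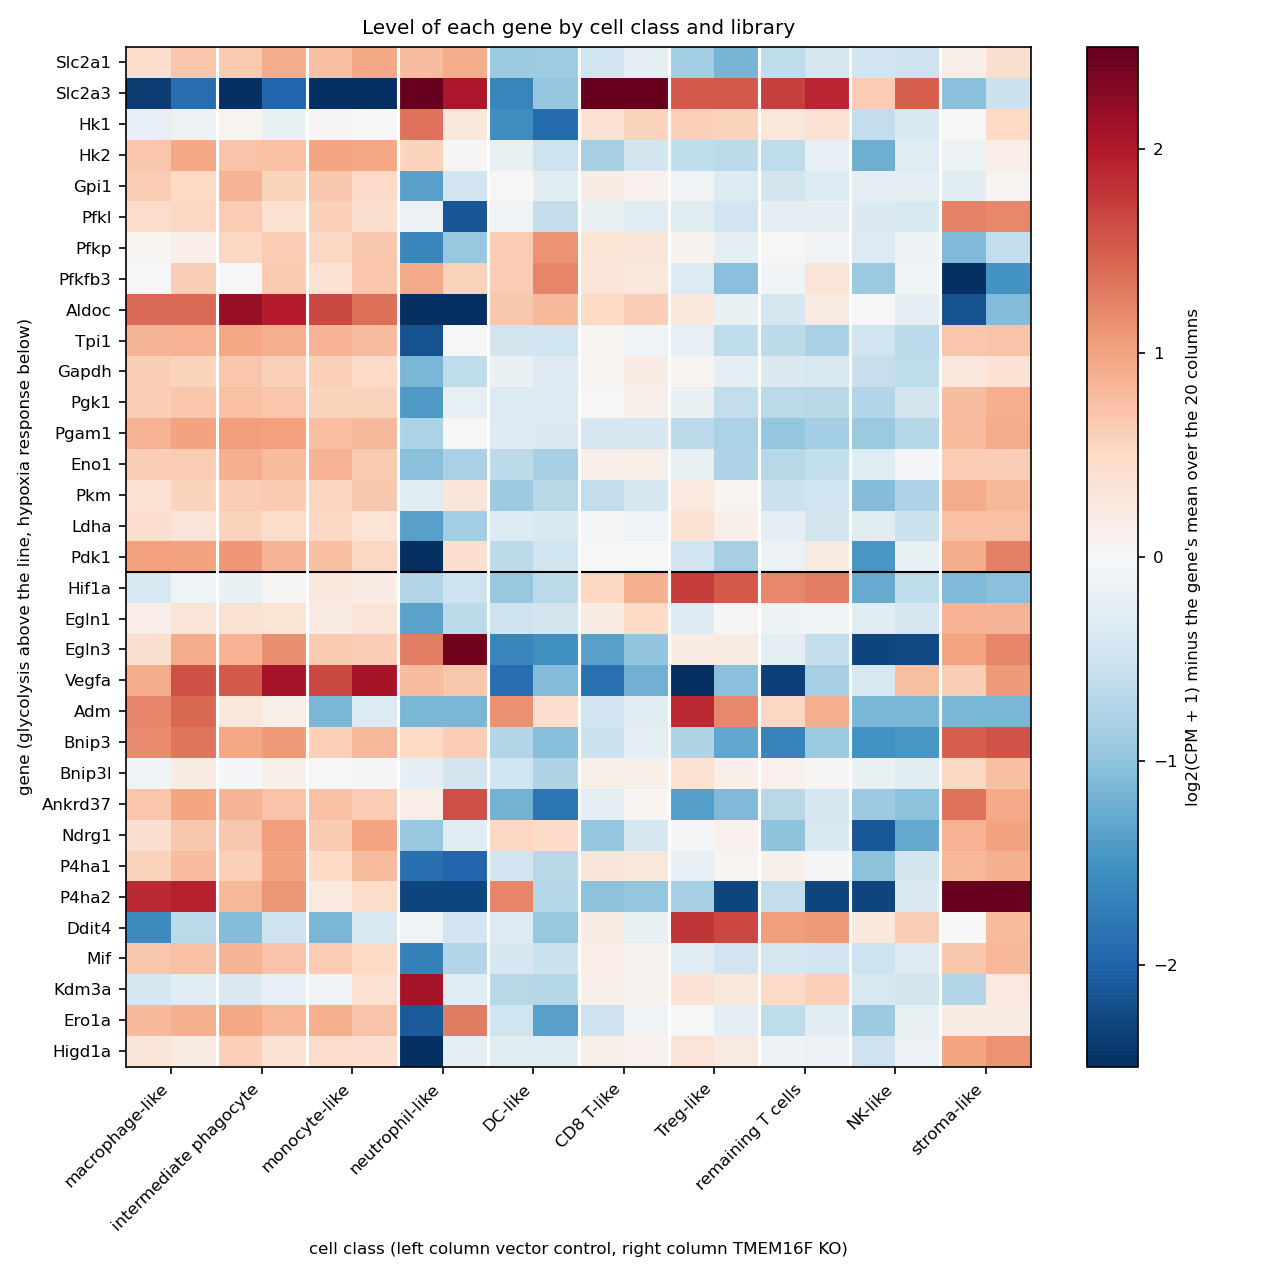
Level of the 33 genes (rows) in 10 cell classes, with the vector control library on the left and the TMEM16F KO library on the right of each pair of columns; colour is log2(CPM + 1) minus the gene's mean over the 20 columns. Most rows are red in the phagocyte classes and blue in the lymphocyte classes, while Slc2a3, Ddit4 and Hif1a are red in T cells; neutrophil-like and stroma-like columns rest on fewer than 50 cells in at least 1 library.

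The libraries were compared within each class. The ratio is the TMEM16F KO level over the vector control level, with an exact 95% interval that covers counting error only. A gene is called higher or lower when it has at least 50 UMIs over both libraries, a ratio of at least 1.5 or at most 1/1.5 and an interval that excludes 1. In macrophage-like cells (2218 vector control and 2175 TMEM16F KO cells), all 33 genes reached 50 UMIs. Of these, 4 were called higher and none lower, while the same rule called 5.05% of 11646 genes higher and 5.3% lower. The 4 were Ddit4, Vegfa, Slc2a3 and Pfkfb3. Vegfa stood at 127 CPM in vector control and 201 CPM in TMEM16F KO cells, a ratio of 1.58 (1.51 to 1.65). Ddit4 stood at 19.995 and 38.3 CPM, a ratio of 1.91 (1.71 to 2.15). Pfkfb3 stood at 29.5 and 45.2 CPM (1.53, 1.39 to 1.69), and Slc2a3 at the far lower level of 2.01 and 3.14 CPM (1.56, 1.06 to 2.31). No enzyme of the glycolytic steps was past the fold. The Slc2a3 call rests on few UMIs: with a stricter marker lead its interval was 0.975 to 2.35, with mitochondrial, ribosomal protein and haemoglobin genes out of the total its ratio was 1.499, and in cells thinned to 2000 UMIs it was found in 0.557% of vector control and 0.504% of TMEM16F KO cells. In the GENCODE annotation of mm10, Vegfa lies at chr17:46016993-46032369 (- strand), Ddit4 at chr10:59949669-59951834 (- strand), Pfkfb3 at chr2:11471433-11554077 (- strand) and Slc2a3 at chr6:122727809-122801640 (- strand), and UMIs were counted per gene, not per exon.

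The rest of the list differed by small amounts in macrophage-like cells. Of the 16 hypoxia genes, 15 had a ratio above 1, with a median log2 ratio of 0.23 beside 0.001 over all genes. Below the fold, Egln3 stood at 41.1 and 59.3 CPM (1.44, 1.33 to 1.57), Ankrd37 at 55.0 and 68.0 CPM (1.24, 1.15 to 1.33) and Ndrg1 at 98.4 and 119.8 CPM (1.22, 1.15 to 1.29). Higd1a was the exception, with 294 and 274 CPM (0.934, 0.903 to 0.967). The glycolysis genes were split. Their median log2 ratio was 0.08, and 12 of 17 had a ratio above 1. Hk2 (126 and 152 CPM), Slc2a1 (106 and 127 CPM) and Pkm (1124 and 1276 CPM) were higher in the TMEM16F KO library beyond counting error, at ratios of 1.21, 1.19 and 1.14. Gpi1, Ldha and Gapdh were lower beyond counting error, at 0.910, 0.934 and 0.961. Such intervals were common in this class: 22.3% of all genes had one above 1 and 23.3% one below 1. Among the glycolysis genes 9 of 17 had one above 1 and 3 one below 1, and among the hypoxia genes 12 and 1 of 16. When every cell was given the same weight in place of summed UMIs, the medians became 0.012 for the hypoxia and -0.053 for the glycolysis genes, so the shift of the lists depends on how cells are weighted. The 4 named genes stayed past the fold with that weighting, but 3 of them did not with the cluster weighting described below.

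Other measures differed between the macrophage-like cells of the libraries. Malat1, a nuclear RNA, stood at 3244 CPM in the vector control and 5072 CPM in TMEM16F KO cells. The summed level of 20 cell cycle genes was 1825 and 903 CPM. That of 20 phagocyte and macrophage markers, which define the class, was 36436 and 45405 CPM, a ratio of 1.25. In cells with Malat1 under 10000 CPM, the ratio of Vegfa was 1.57 and that of Ddit4 1.97, while Pfkfb3 was short of the fold at 1.46. The part of the cell cycle and marker differences in these ratios was not tested. Over 12 processing alternatives, the Vegfa ratio ranged from 1.30 to 1.68 and the Ddit4 ratio from 1.73 to 2.12.

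Phagocytes of the libraries were also spread differently over clusters, which were built without the 33 genes. Of all phagocytes, cluster 11 held 3.28% of vector control and 9.53% of TMEM16F KO phagocytes, cluster 9 3.14% of vector control and 6.80% of TMEM16F KO phagocytes, cluster 7 11.2% of vector control and 2.49% of TMEM16F KO phagocytes and cluster 13, led by cell cycle genes, 8.58% of vector control and 1.93% of TMEM16F KO phagocytes. When each cluster was given the same weight in both libraries, an alternative chosen after seeing the data, the macrophage-like ratio was 1.30 for Vegfa, 1.29 for Pfkfb3 and 1.42 for Slc2a3, all short of the fold. Ddit4 alone stayed past it, at 1.73. The medians were then 0.035 for the hypoxia and 0.002 for the glycolysis genes. Cluster by cluster, Vegfa had a ratio above 1 in all 13 phagocyte clusters, with a median of 1.36. Its interval lay above 1 in 8 of them, and it was called higher in 4. The 13 include small or mixed clusters: cluster 12 with 59 phagocytes, and cluster 22 with 80, led by Xcl1, Nkg7 and Gzmc. Cluster 7 had a median of 1184 UMIs. Pfkfb3 reached 50 UMIs in 10 clusters, with a median ratio of 1.33, and was called higher in 3. Ddit4 reached 50 UMIs in 7 clusters, with a median ratio of 1.88, and was called higher in 5. The class ratios of Vegfa and Pfkfb3 were thus smaller at equal cluster shares and within most clusters. Apart from cluster 3, the share of all genes called in a single cluster was not computed. The counts of clusters therefore describe these genes and do not set them apart from others.

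Vegfa was also counted as a share of cells with at least 1 UMI, after each macrophage-like cell had been thinned to 2000 UMIs. This left out 423 vector control and 191 TMEM16F KO cells of lower depth. The share was 20.3% in the vector control and 30.8% in the TMEM16F KO library, with exact 95% binomial intervals of 18.4 to 22.2 and 28.8 to 32.9. Before thinning, at median depths of 9134 and 9461 UMIs, the shares were 43.4% and 63.5%. In CD8 T-like cells, which had little Vegfa, the thinned shares were 3.83% and 3.87%. The unthinned shares there were 8.60% and 10.9% at median depths of 6688 and 5636 UMIs. The macrophage-like share of cells with Vegfa was thus above the share in CD8 T-like cells in both libraries. Its intervals did not overlap between the libraries. They take cells as the units, with 1 library per group, and cover no difference between tumours.

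The other phagocyte classes held fewer UMIs than the macrophage-like class. Their counts of members past the fold were near or below the share over all genes. In intermediate phagocytes (250 vector control and 303 TMEM16F KO cells), 30 of the 33 genes reached 50 UMIs and 2 were called higher, beside 6.24% of 7053 genes, and none lower (2.31%). These were Pfkfb3, at 28.9 and 46.8 CPM (1.62, 1.196 to 2.21), and Ddit4, at 28.5 and 43.1 CPM (1.51, 1.11 to 2.08). Vegfa stood at 193 and 278 CPM (1.44, 1.28 to 1.62), which is below the fold. In monocyte-like cells (400 vector control and 377 TMEM16F KO cells), 30 genes were measured and Ddit4 alone was called higher, at 27.6 and 46.3 CPM (1.68, 1.26 to 2.26), where the rule called 6.08% of 7252 genes higher. None was called lower, beside 2.19%. Vegfa stood at 211 and 279.9 CPM (1.33, 1.19 to 1.48) there. The median log2 ratio of the hypoxia genes was 0.17 in intermediate phagocytes and 0.05 in monocyte-like cells, beside 0.06 and 0.04 over all genes, and that of the glycolysis genes was -0.08 and -0.06. Malat1 was higher in the TMEM16F KO library in these classes too, with ratios of 1.46 and 1.39. Cell cycle genes stood at 897 and 537 CPM in intermediate phagocytes and at 827 and 638 CPM in monocyte-like cells, and T cell markers at 112 and 173 CPM in intermediate phagocytes. The part of these markers in the differences was not tested. Neither class gave a stable count. As a mean over cells, 5 members were higher and 1 lower in intermediate phagocytes, and with equal cluster weights 0 were past the fold. In monocyte-like cells the mean over cells gave 0 higher and 1 lower, with Ddit4 at 1.40, and classes drawn from clusters gave 0 higher and 8 lower. Among monocyte-like cells with Malat1 under 10000 CPM, Ddit4 had a ratio of 1.69 and the hypoxia median was -0.104.

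**Figure D2:**
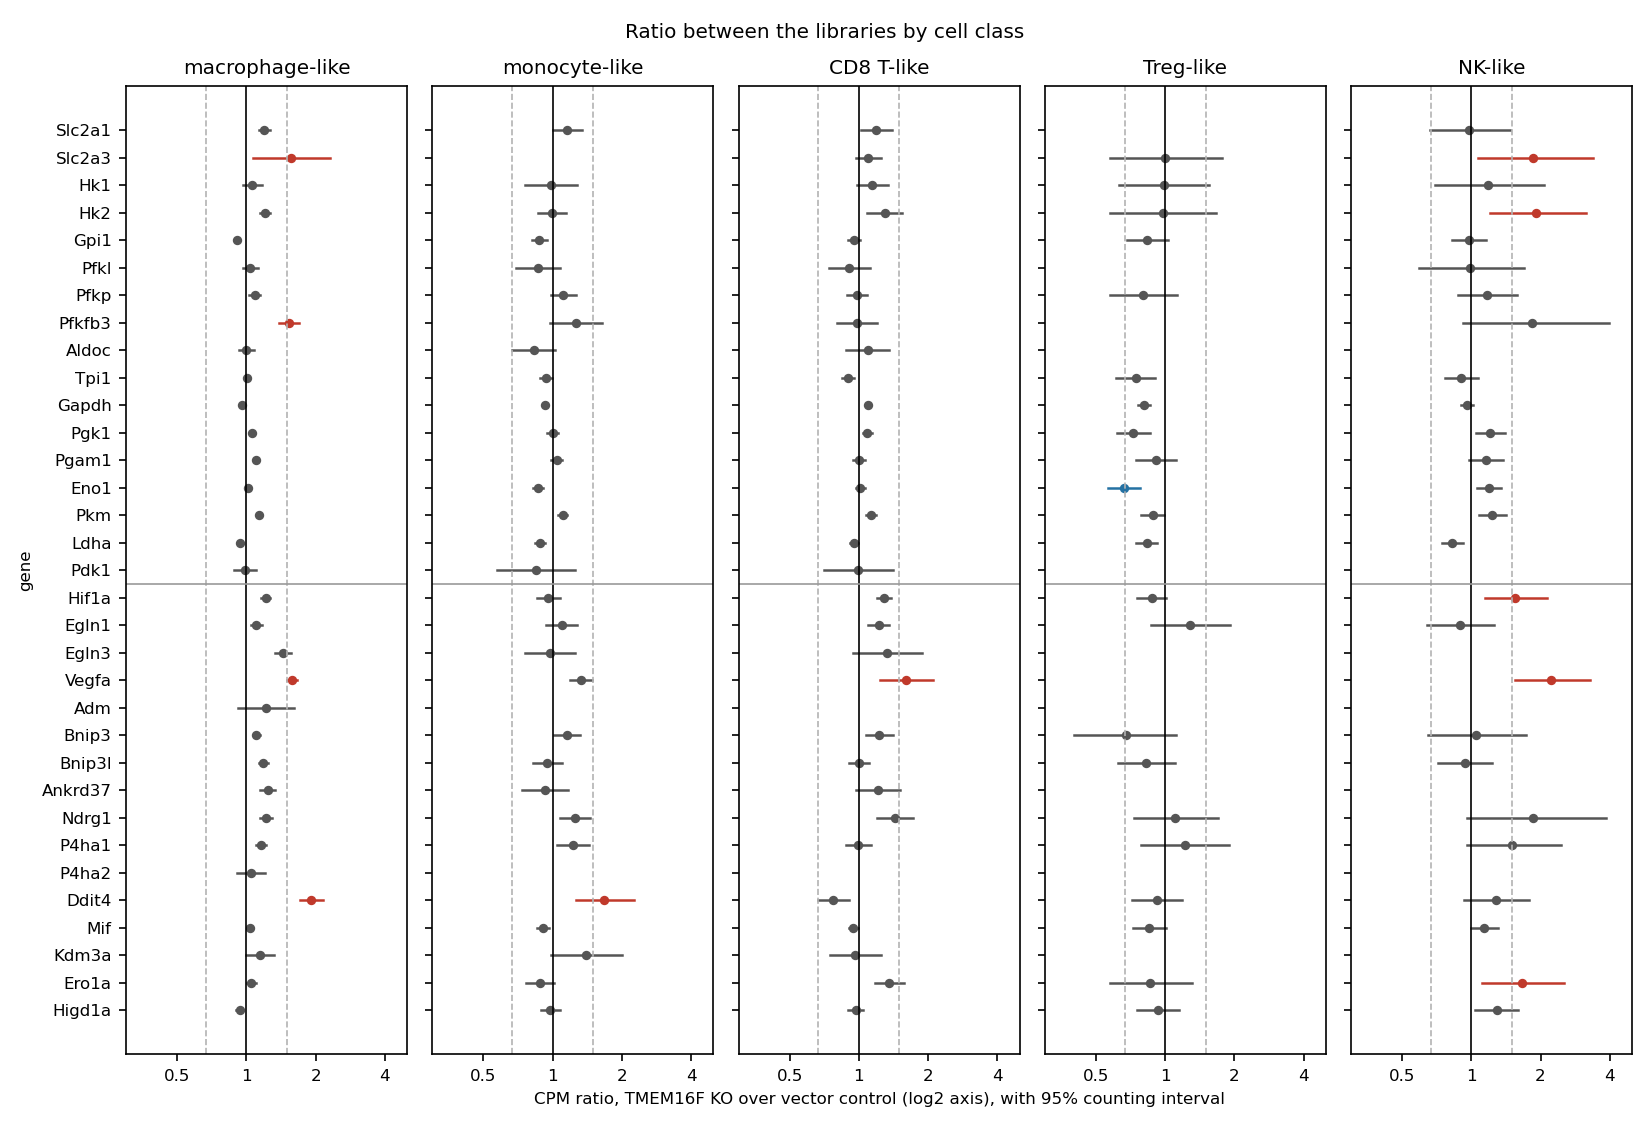
Ratio of the TMEM16F KO over the vector control level of each gene (rows, glycolysis above the line) in 5 classes on a log2 axis, with the exact 95% counting interval; red and blue mark genes called higher or lower past the dashed 1.5-fold lines, and genes under 50 UMIs are not drawn. Red points are Ddit4, Vegfa, Slc2a3 and Pfkfb3 in macrophage-like cells, Ddit4 in monocyte-like cells, Vegfa in CD8 T-like cells and 5 genes in NK-like cells, and Eno1 in Treg-like cells is the 1 blue point.

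Lymphocytes differed among themselves. In CD8 T-like cells (663 vector control and 887 TMEM16F KO cells), 31 genes were measured and Vegfa alone was called higher, at 17.5 and 28.0 CPM (1.60, 1.23 to 2.10). The rule called 5.08% of 9190 genes higher and 3.96% lower, and no member was lower. Hk2 (42.9 and 55.7 CPM), Hif1a (274 and 353 CPM), Ero1a (58.6 and 79.5 CPM) and Ndrg1 (37.8 and 54.2 CPM) were higher beyond counting error but below the fold. Of the 31 members, 11 had an interval above 1 and 4 had one below 1, beside 15.5% and 13.7% of all genes. Ddit4 was lower beyond counting error, at 70.4 and 54.5 CPM (0.775, 0.665 to 0.903), where in macrophage-like cells it was higher. The summed level of 20 phagocyte and macrophage markers in CD8 T-like cells was 1463 and 3160.1 CPM, a ratio of 2.16. Among CD8 T-like cells with these markers under 2000 CPM, the Vegfa ratio was 1.25 (0.847 to 1.83), and no member was past the fold.

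In NK-like cells (101 vector control and 195 TMEM16F KO cells), 26 genes were measured and 5 were called higher, beside 6.8% of 4956 genes, with none lower (3.15%). Vegfa stood at 50.2 and 112 CPM (2.23, 1.55 to 3.28) and Hk2 at 32.6 and 62.3 CPM (1.91, 1.21 to 3.14). Slc2a3 stood at 23.1 and 42.7 CPM (1.85, 1.07 to 3.38), Ero1a at 44.8 and 74.1 CPM (1.66, 1.11 to 2.53) and Hif1a at 78.7 and 122 CPM (1.56, 1.15 to 2.13). Not all of these calls held. In NK-like cells thinned to 2000 UMIs, Slc2a3 was found in 7.45% of vector control and 6.63% of TMEM16F KO cells. The thinned shares for Vegfa were 7.45% and 13.3%. With every cell weighted equally, the Ero1a ratio was 0.935. Ldha was lower beyond counting error, at 777 and 644 CPM (0.828, 0.745 to 0.921). Of the 26 members, 9 had an interval above 1 and 1 had one below 1, beside 11.1% and 7.18% of all genes. Phagocyte markers stood at 1308 and 2478 CPM in NK-like cells, and cell cycle genes at 2794 and 1186 CPM. Among NK-like cells with few phagocyte markers, Vegfa had a ratio of 1.70 and Hk2 one of 1.43. The part of the cell cycle difference was not tested. With a stricter marker lead for the class, the count of members past the fold was 1.

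Treg-like cells (95 vector control and 139 TMEM16F KO cells) had mostly lower levels in the TMEM16F KO library. Of 22 measured members, 18 had a ratio below 1, with median log2 ratios of -0.26 for the glycolysis and -0.15 for the hypoxia genes, beside -0.02 over all genes. Eno1 was called lower, at 588 and 389.6 CPM (0.663, 0.564 to 0.779), where the rule called 5.76% of 3767 genes lower. No member was called higher, beside 3.9%. Pgk1 (547 and 398 CPM), Tpi1 (377 and 281 CPM), Gapdh (3616 and 2937 CPM), Ldha (1222 and 1016 CPM) and Pkm (1033 and 911 CPM) were lower beyond counting error but short of the fold. Of the 22 members, 6 had an interval below 1 and 0 had one above 1, beside 9.29% and 7.72% of all genes. Malat1 was lower too, at 5793 and 4198 CPM, and its part was not tested. When classes were drawn from clusters, the Eno1 ratio was 0.805, the hypoxia median was 0.009, and 1 member was called higher and 0 lower. In the remaining T cells (295 vector control and 442 TMEM16F KO cells), 30 genes were measured. Vegfa (12.4 and 36.7 CPM, ratio 2.96), Bnip3 (32.9 and 55.6 CPM, 1.69) and Ndrg1 (36.5 and 57.2 CPM, 1.57) were past the fold there, beside 5.54% of 6409 genes, and none was lower (3.15%). Over 8 alternatives the Vegfa ratio there ranged from 1.75 to 2.99. With classes drawn from clusters, Vegfa had a ratio of 2.03 and Bnip3 one of 0.750, below 1, in remaining T cells, and as a mean over cells Bnip3 had 1.03. The cell cycle genes stood at 2776 and 1449.8 CPM there, a difference whose part was not tested. Phagocyte markers had a ratio of 1.90 in Treg-like and 1.82 in remaining T cells.

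In DC-like cells (70 vector control and 79 TMEM16F KO cells, led by Fscn1, Ccl22 and Ccr7), 24 genes were measured. Ero1a was called lower, at 60.2 and 32.7 CPM (0.544, 0.337 to 0.869), beside 3.12% of 4000 genes, and no member was called higher, beside 5.42%. Pfkp stood at 187 and 263 CPM (1.40, 1.14 to 1.73), Pkm at 462 and 536 CPM (1.16, 1.01 to 1.33) and Gapdh at 3073 and 2754 CPM (0.896, 0.848 to 0.947). Of the 24 members, 2 had an interval above 1 and 3 had one below 1, beside 9.95% and 7.05% of all genes. The median log2 ratio of the hypoxia genes was -0.17, beside 0.04 over all genes. It was 0.063 with classes drawn from clusters and 0.258 in cells with phagocyte markers under 2000 CPM, where 2 members were called higher and 0 lower, so no direction holds for the list. T cell markers stood at 277 and 494 CPM in DC-like cells, and their part was not tested.

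Other genes of the same pathways were read from lists chosen with earlier results of these data known. In macrophage-like cells, 27 of 35 other hypoxia response genes were measured, of which 5 were called higher and none lower, beside 5.05% and 5.3% of all genes, with a median log2 ratio of 0.13 beside 0.001. They include Hilpda, which promotes lipid droplets, at 219 and 477 CPM (2.18, 2.11 to 2.25), Pgf, a relative of Vegfa, at 9.19 and 15.8 CPM (1.72, 1.45 to 2.05), and Hmox1, the haem oxygenase, at 303 and 502 CPM (1.66, 1.61 to 1.71). Of 10 measured integrated stress and mTORC1 genes, 1 was called higher, the stress-induced cytokine Gdf15, at 31.7 and 99.1 CPM (3.12). Of 31 other glycolysis and lactate genes, 18 were measured. None was called higher and 1 was called lower, the transporter gene Slc2a6, at 9.89 and 5.59 CPM (0.565, 0.452 to 0.705), and their median log2 ratio was -0.07. None of 11 measured HIF regulator genes was called in either direction. All 18 tricarboxylic acid cycle genes had a ratio below 1, with a median log2 ratio of -0.22, and Idh3a, a subunit of isocitrate dehydrogenase, was past the fold at 42.7 and 28.1 CPM (0.658, 0.595 to 0.727).

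Hilpda was called higher in 6 of the 8 classes with ratios and was followed through them after its values had been seen. The share of all genes called higher in as many classes was not computed, so this count only describes Hilpda. In intermediate phagocytes, Pgf (11.9 and 45.3 CPM, 3.81), Gdf15 (14.5 and 42.7 CPM, 2.96), Hilpda (264 and 484 CPM, 1.83) and the HIF coactivator gene Crebbp (41.2 and 64.5 CPM, 1.56) had the highest ratios among the other pathway genes called. In monocyte-like cells these were Gdf15 (18.6 and 61.5 CPM, 3.31), the glycogen branching enzyme gene Gbe1 (12.4 and 25.8 CPM, 2.08), Pgf (13.1 and 25.1 CPM, 1.91) and the glycogen synthase gene Gys1 (12.8 and 23.9 CPM, 1.88), with Hilpda next at 256 and 423 CPM. NK-like cells had 5 of 16 measured hypoxia response genes called higher, beside 6.8% of all genes. They were led by Mxi1 (16.3 and 37.1 CPM, 2.28), Gbe1 (17.6 and 35.7 CPM, 2.02), the lactate exporter gene Slc16a3 (20.3 and 37.8 CPM, 1.86) and Hilpda (93.6 and 165 CPM, 1.76), while Pgm2 (35.3 and 18.2 CPM, 0.516) and Fh1 (46.1 and 28.0 CPM, 0.607) were lower. In remaining T cells, Hilpda (92.7 and 227 CPM, 2.45) and Wsb1 (131 and 205 CPM, 1.56) were called higher. In DC-like cells, Pdhb (24.9 and 45.6 CPM, 1.83), Cs (52.3 and 85.3 CPM, 1.63) and Hilpda (75.9 and 122 CPM, 1.61) were called higher and Fh1 (96.8 and 60.5 CPM, 0.625) and Idh3b (78.5 and 49.6 CPM, 0.632) lower. Treg-like cells had Hmox1 (28.2 and 62.0 CPM, 2.20) higher and Jmjd6 (68.7 and 30.3 CPM, 0.441), Kdm4c (65.1 and 34.4 CPM, 0.528) and the citrate synthase gene Cs (73.9 and 45.4 CPM, 0.615) lower. In CD8 T-like cells, Gdf15 (1.79 and 9.34 CPM, 5.22), Hmox1 (20.7 and 46.2 CPM, 2.24), Cxcr4 (24.2 and 43.4 CPM, 1.79) and Rora (114 and 179 CPM, 1.57) were called higher, and the asparagine synthetase gene Asns (8.74 and 4.17 CPM, 0.477), Eno3 (16.7 and 9.84 CPM, 0.589) and Plod2 (38.8 and 24.2 CPM, 0.624) lower. Of the 21 hypoxia response genes measured there, 3 were thus called higher and 1 lower, beside 5.08% and 3.96% of all genes. For comparison with CD8 T-like and Treg-like cells, Hmox1 and Gdf15 stood at 303 and 502 CPM and 31.7 and 99.1 CPM in macrophage-like cells, and the TMEM16F KO cells of both lymphocyte classes had more phagocyte markers. The part of those markers in these values was not tested.

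Within phagocytes the members were not evenly spread. Clusters were built from variable genes with the 33 left out, and phagocytes of 13 clusters with enough cells were compared. Cluster 3, led by Cxcl3, Mmp13, Mmp12 and Mmp8, had the highest summed level of the hypoxia genes and was singled out after its values had been seen, so its levels are a description. Of the 33 genes, 20 were highest there, 11 hypoxia and 9 glycolysis genes. The share of all genes that are highest in a given cluster was not computed. Cluster 3 was also among the deepest clusters, with a median of 12085 UMIs. Over both libraries, Bnip3 reached 474 CPM in cluster 3 and 295 CPM in the next cluster. Egln3 reached 120.4 against 60.9 CPM, and Ero1a 307 against 228 CPM. Pgk1 reached 1467 against 1068 CPM. Genes of mitophagy, oxygen sensing, oxidative folding and glycolysis were thus high in the same cluster. Whether they were high in the same single cells was not tested.

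A different set peaked in cluster 9, where Malat1 stood at 35938 CPM and the median depth was 3538 UMIs. There 10 members were highest, among them Hk2 at 435 CPM, Pfkp at 391 CPM, Vegfa at 389 CPM, Ndrg1 at 301 CPM and Hif1a at 379 CPM. Gapdh was lowest of all clusters there, at 1054 CPM against 6965 CPM in cluster 3. Vegfa, Hk2 and Hif1a thus peaked in another cluster than Bnip3 and Egln3. The part of nuclear RNA in the cluster 9 levels was not tested.

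**Figure D3:**
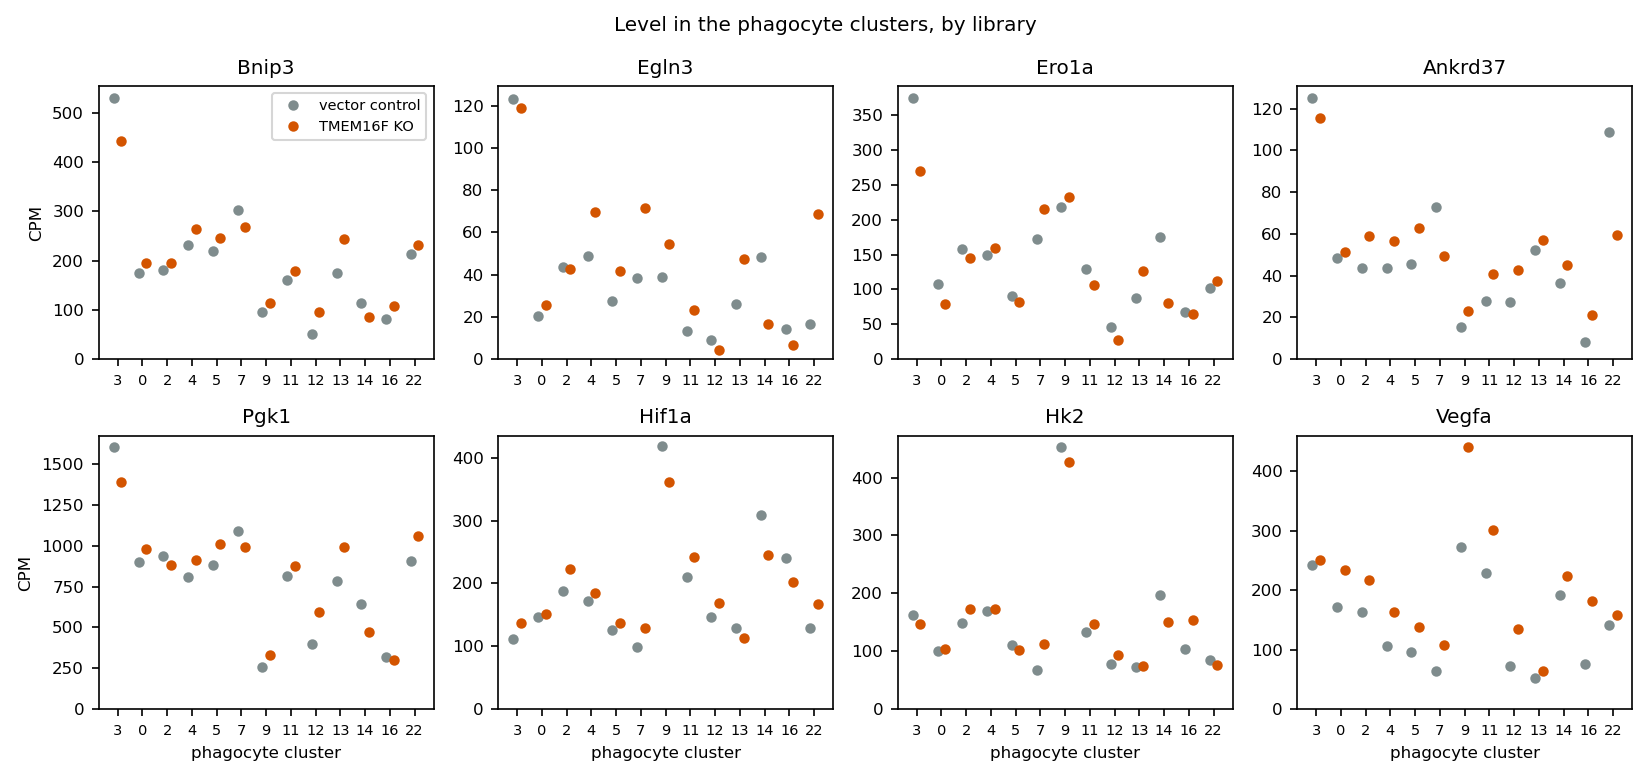
Level (CPM) of 8 genes in the phagocyte clusters of at least 50 cells, with the vector control in grey and the TMEM16F KO library in orange. Bnip3, Egln3, Ero1a, Ankrd37 and Pgk1 are highest in cluster 3 in the vector control library, while Hif1a, Hk2 and Vegfa are highest in cluster 9 over both libraries.

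Cluster 3 held 287 of 2868 vector control phagocytes (10.0%, exact 95% interval 8.93 to 11.2) and 502 of 2855 TMEM16F KO phagocytes (17.6%, 16.2 to 19.0). More phagocytes thus lay in the cluster in the TMEM16F KO library, while most members had lower levels in it. The intervals of these shares take cells as the units and cover no difference between tumours. Of 32 members measured inside the cluster, 28 had a ratio below 1, with a median log2 ratio of -0.16 beside 0.01 over all genes. Ndrg1 was called lower there, at 229 and 148 CPM (0.647, 0.589 to 0.711), beside 2.12% of 8154 genes, and no member was called higher (2.34%). Ero1a stood at 374 and 270.0 CPM, Slc2a1 at 225 and 161 CPM and Bnip3 at 531 and 443 CPM. Hif1a was the other way, at 112 and 138 CPM, a ratio of 1.23 (1.09 to 1.39). Vegfa stood at 242 and 252 CPM, a ratio of 1.04 (0.957 to 1.13), and Ddit4 at 44.9 and 47.0 CPM, a ratio of 1.05 (0.862 to 1.27).

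Outside cluster 3, the 4 members called higher in macrophage-like cells were called higher, beside 6.84% of 11791 genes, and none was lower (4.4%). These phagocytes are largely the same macrophage-like cells, so the calls are not separate support for the first ones. Vegfa stood at 127 and 205 CPM, a ratio of 1.62 (1.54 to 1.69). Ddit4 stood at 18.1 and 37.3 CPM, a ratio of 2.06 (1.84 to 2.32), and Pfkfb3 at 28.2 and 46.0 CPM, a ratio of 1.63 (1.48 to 1.798). The value outside pools 12 clusters of at least 50 cells, whose shares differ between the libraries, with a few cells of smaller ones, and the ratio of a single cluster was often smaller: that of Vegfa was 1.36 in cluster 0, 1.33 in cluster 2, 1.44 in cluster 5, 1.32 in cluster 11 and 1.24 in cluster 13, and that of Pfkfb3 1.40, 1.25 and 1.27 in clusters 0, 4 and 5. Of the clusters with at least 50 UMIs, cluster 3 had the lowest ratio of Vegfa, Ddit4 and Pfkfb3. Ndrg1 had ratios of 1.42 (1.34 to 1.51) outside and 0.647 (0.589 to 0.711) inside, and Slc2a1 of 1.31 (1.24 to 1.38) and 0.717 (0.654 to 0.787), with intervals that do not overlap. Bnip3 had 1.07 (1.03 to 1.12) and 0.835 (0.787 to 0.885). Low ratios were not limited to cluster 3. In cluster 14, led by Plac8 and Ifitm6, 21 of 24 measured members had a ratio below 1 and 7 were called lower, with a median log2 ratio of -0.42. There Ndrg1 had 0.583 (0.386 to 0.872), Ero1a 0.464 (0.328 to 0.650) and Slc2a1 0.740 (0.523 to 1.04). Cluster 7 had 16 of 24 members below 1, and in cluster 13 Slc2a1 had 0.708 (0.530 to 0.933). For clusters 14 and 7, no share or median over all genes was computed, so these counts are not a result about the members. The median depths of clusters 14 and 7 were 4612 and 1184 UMIs. Whether these differences between the parts of the phagocyte pool hold over tumours was not tested, with 1 library per group. Malat1 stood at 3876 and 6674 CPM outside the cluster and at 1913 and 1614 CPM inside it.

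**Figure D4:**
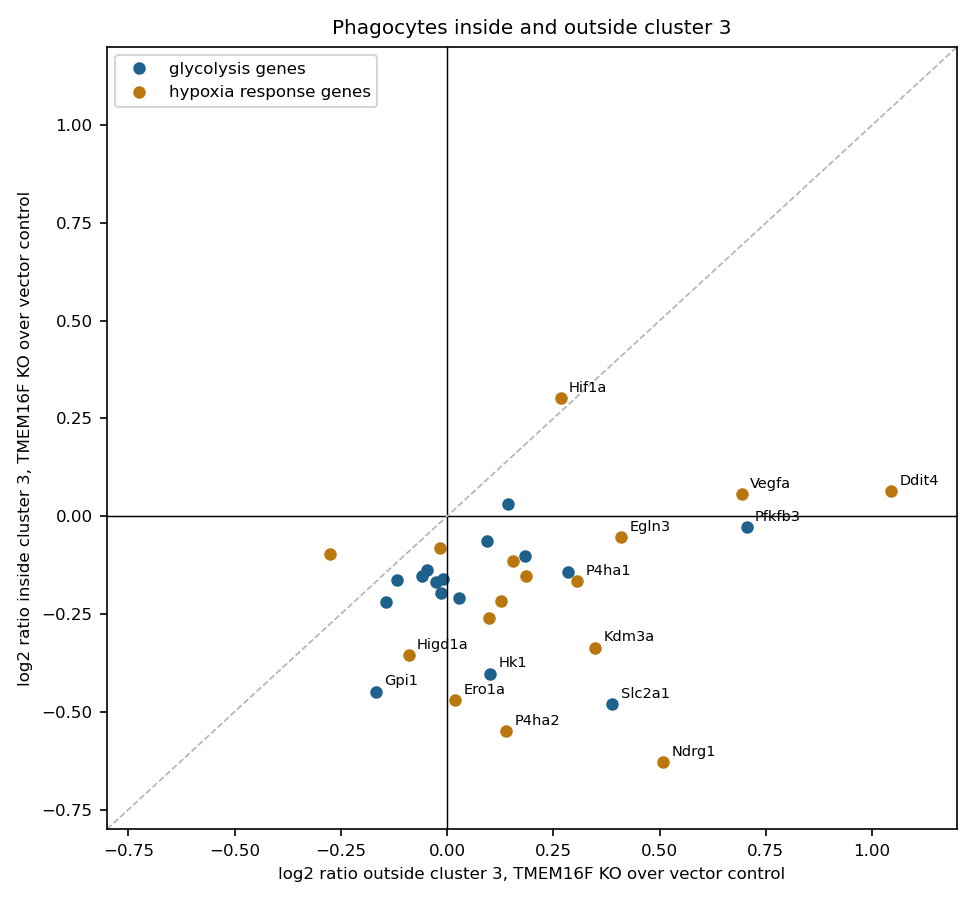
Log2 ratio of each gene (TMEM16F KO over vector control) in phagocytes outside cluster 3 (horizontal) and inside it (vertical), with glycolysis genes in blue and hypoxia genes in ochre; the dashed line marks equal ratios. Most points lie below the horizontal zero line and below the dashed line, and Ddit4, Pfkfb3 and Vegfa lie far to the right near a vertical value of 0.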

How the data were processed

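Single-cell libraries were made from MC38 tumours with the 10x Genomics 3′ chemistry, per the labels' protocols. The files the authors deposited are raw UMI counts for every gene and barcode. Per the file headers, Cell Ranger 8.0.0 wrote them. The submitters' processing notes name the build mm10 and Seurat 3.1.1, without saying what Seurat did. The annotation is not given in any source used here.

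The filter asked for 200 genes or more and a mitochondrial share of UMIs below 20%. Scrublet's automatic threshold marked 0 barcodes in each library and was not used. The highest scores were left out at 0.8% per 1000 barcodes of a library (221 vector control and 287 TMEM16F KO barcodes).

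Each marker's level in a cell was divided by the mean of its 50 highest cells, limited to 1 and averaged over the markers of 10 lineages. A class needed a mean of 0.05, a lead of 1.5 over the next lineage and 3 markers with a UMI. Macrophage-like and monocyte-like cells were parted by a further lead of 1.5, and 555 of 5723 phagocytes lay within a ratio of 1.2 to 1.8 of that limit. T cells were divided by Cd8a, Cd8b1, Cd4 and Foxp3. Of 10716 kept cells, 8915 were classed. These limits were chosen with the values in view, and class names rebuilt in this way can themselves differ from those of the study. The study states 10782 cells of 14 types, and the filter here kept 10716 of 11246 barcodes.

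UMIs were summed per class and library. Intervals are exact Poisson for levels and exact conditional binomial for ratios, and cover counting error only. Every member past the fold was named in each class, up to 6 per direction, and up to 4 per direction and class of the other pathway genes by size of ratio. Hilpda was followed beyond that limit after its values were seen. The members and lists were chosen with earlier results of these data known. Clusters came from 2000 variable genes without the members, 30 principal components, 15 neighbours and the Leiden algorithm at resolution 1. The ratio and interval code was tested on simulated data. Alternatives changed the scaling, the weighting of cells, depth, doublets, classes and the UMI minimum, and 4 were added after seeing the data, 1 of which gave each phagocyte cluster of at least 10 cells in both libraries its share of the UMIs of both as a common weight. Analyses used Python 3.11.15, scanpy 1.11.5, numpy 2.4.6, scipy 1.17.1, pandas 2.3.3, leidenalg 0.10.2 and matplotlib 3.10.9.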

Additional observations from a re-analysis of the deposited data

Results flagged for a closer look

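Ero1a, which encodes an oxidase of the endoplasmic reticulum, was past the 1.5-fold limit in opposite directions in a pair of cell classes. Its ratio of TMEM16F KO over vector control was 1.66 in NK-like cells and 0.544 in DC-like cells. The difference between the classes was not tested. With every cell weighted equally the NK-like ratio was 0.935, below 1, and with a stricter marker lead it was 1.18. With classes drawn from clusters the DC-like ratio was 0.827. Both classes were small, with 101 and 195 NK-like cells and 70 and 79 DC-like cells in the vector control and TMEM16F KO libraries.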

How the results depend on the processing

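Counts of members past the fold stayed within 1.5 times the reported count, without turning to the opposite direction, in 61 of 89 alternatives. They moved further in 23, and in 5 most calls were in the opposite direction. The medians are near 0. The glycolysis median left the range spanned by the reported median's order-statistic 95% interval over members in 4 of 89 alternatives and changed sign in 7, and the hypoxia median in 5 and 6. Of 182 ratios recomputed for single members, 147 kept their direction and side of the threshold, 33 were no longer past it and 2 reversed. The cause of the shifts below was not tested. With mitochondrial, ribosomal protein and haemoglobin genes out of the total, counts were 2 in macrophage-like cells and 1 in intermediate phagocytes, and the CD8 T-like glycolysis median was -0.036. As a mean over cells, counts were 6 in intermediate phagocytes (5 higher, 1 lower), 4 in DC-like and 2 in Treg-like cells, and in monocyte-like cells the count was 1, lower in place of higher. The macrophage-like medians were then -0.053 (glycolysis) and 0.012 (hypoxia), the glycolysis median of remaining T cells was -0.056, and the Ero1a ratio in NK-like cells reversed to 0.9345. With classes from clusters, counts were 8 in monocyte-like cells (all lower), 3 in DC-like cells (2 higher), 3 in NK-like cells and 1 in Treg-like cells, higher in place of lower. The monocyte-like medians were then -0.456 (glycolysis) and -0.556 (hypoxia), the DC-like medians were 0.024 (glycolysis) and 0.063 (hypoxia), the Treg-like hypoxia median was 0.009, and the Bnip3 ratio in remaining T cells reversed to 0.7503. Intermediate phagocytes have no cluster and so no value there. With doublet scores not used, counts were 1 in intermediate phagocytes, 0 in Treg-like and 3 in NK-like cells. With a stricter marker lead, they were 2 in DC-like and 1 in NK-like cells. Cells of at least 2000 UMIs gave 1 in intermediate phagocytes. A minimum of 200 UMIs gave 0 in intermediate phagocytes, DC-like cells and remaining T cells and 1 in NK-like cells, with medians of -0.034 for the monocyte-like hypoxia and -0.022 for the remaining T glycolysis genes, and a minimum of 20 UMIs gave 2 in Treg-like cells. Median-ratio size factors gave 1 in intermediate phagocytes and 0 in Treg-like cells. Among alternatives chosen after seeing the data, Malat1 under 10000 CPM gave 2 in DC-like cells, a monocyte-like hypoxia median of -0.104 and a CD8 T-like glycolysis median of -0.011. Equal cluster weights gave 1 in macrophage-like cells and 0 in intermediate phagocytes, with a macrophage-like hypoxia median of 0.035. Phagocyte markers under 2000 CPM gave 2 in DC-like cells, both higher, and 0 in CD8 T-like cells, with DC-like medians of 0.191 (glycolysis) and 0.258 (hypoxia). No paired analysis was possible because there was 1 library per group. Depth limits the small classes most: 22 members reached 50 UMIs in Treg-like cells against 33 in macrophage-like cells.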
